A study of Mus musculus with 12 samples.

Results

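Lyz1, Lyz2, Cd52, Plek, Lgals3, F13a1, Emr1, Mpeg1 and Ccr2 are genes of monocytes and macrophages whose transcripts were measured here by RNA sequencing in mouse bone marrow cells carrying a leukaemia fusion gene. They are 9 of the 24180 gene symbols in the 3 expression tables, and all 9 are in every table. They were picked by symbol with the difference between cells given PRDM16 and cells given its mutant form, PRDM16mut, already known, because several of them were higher with PRDM16 in all 3 experiments. That difference is therefore described here for the 9 genes and not tested.

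Each experiment had 2 libraries with PRDM16 and 2 with PRDM16mut, so that 12 libraries form 6 groups. In the MLL-AF9 cotransduction, lineage-negative (Lin-) bone marrow cells of C57BL/6 mice received MLL-AF9 together with PRDM16 or PRDM16mut. In the E2A-HLF cotransduction, the same kind of cells received E2A-HLF together with PRDM16 or PRDM16mut. The MLL-AF9 stable cells were bone marrow cells that had first been transduced with MLL-AF9 and then took up PRDM16 or PRDM16mut. All groups thus carry a fusion oncogene and an introduced PRDM16 form, all grew in IMDM with 15% FBS and 10 ng/ml each of IL3, IL6 and SCF, and all had 10 days of selection, by G418 plus puromycin for the cotransductions and by puromycin alone for the stable cells. Cells with neither PRDM16 form are not analysed here, and the labels do not say what change PRDM16mut carries. The labels do not say whether the libraries of a group came from separate cultures, so the spread between them may be technical.

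Monocytes arise in the marrow from myeloid progenitors and mature into macrophages in tissues. Their progenitors depend on transcription factors of the ETS, C/EBP and IRF families, and the cells are known for lysosomal degradation, sensing of microbes and migration towards chemokines. Several of their abundant transcripts, the lysozymes among them, are also made by granulocytes, so none of the 9 genes alone marks a monocyte. MLL-AF9 is a fusion found mostly in human leukaemias with monocytic features, and E2A-HLF is found in human lymphoid leukaemia.

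The mouse genome holds a pair of neighbouring lysozyme genes on chromosome 10, Lyz2 for the form of macrophages and granulocytes and Lyz1 for the form best known from the small intestine. Their promoters are shown because both genes were higher with PRDM16 in all 3 experiments. The sequences are from RefSeq (build GRCm38.p6), cover the 250 bases before the transcription start on the minus strand, and carry in capitals the longest run that is the same in both genes. Lyz1 lies at chr10:117292869-117293118 and Lyz2 at chr10:117282273-117282522.
Lyz1: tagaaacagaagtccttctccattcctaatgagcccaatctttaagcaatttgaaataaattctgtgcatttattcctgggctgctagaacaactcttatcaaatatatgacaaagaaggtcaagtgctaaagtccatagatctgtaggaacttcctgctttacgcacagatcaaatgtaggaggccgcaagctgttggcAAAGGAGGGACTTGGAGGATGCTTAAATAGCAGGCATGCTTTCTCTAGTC
Lyz2: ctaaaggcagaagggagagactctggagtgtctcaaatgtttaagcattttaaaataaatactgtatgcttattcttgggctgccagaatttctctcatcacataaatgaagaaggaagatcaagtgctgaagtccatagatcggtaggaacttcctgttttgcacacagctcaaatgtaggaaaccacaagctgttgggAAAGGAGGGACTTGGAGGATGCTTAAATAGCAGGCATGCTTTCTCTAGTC

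The shared run is 50 bases long and ends at the base before the start in both genes. Over the whole stretch 200 of 252 aligned positions were identical (79.4%). The transcripts, and not the promoters, bear on how reads are placed. The coding sequences are closer still, with 425 of 447 bases identical (95.1%). Of the windows of 50 bases in the Lyz1 transcript, 16.1% occur unchanged in the Lyz2 transcript and 63.0% occur there with up to 2 mismatches. Short reads from the unchanged stretches fit either gene equally, so the split between Lyz1 and Lyz2 is uncertain, and their sum is given beside it. How reads from stretches with mismatches were placed is not known. The window of 50 bases was chosen here and need not be the read length.

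In the MLL-AF9 cotransduction the 9 genes together reached 5997 and 6009 FPKM, the number of fragments divided by transcript length and library size, in the PRDM16 libraries, against 2520 and 2519 FPKM in the PRDM16mut libraries. Lyz2 alone made up 66.5% and 67.3% of these sums with PRDM16 and 71.2% and 71.8% with PRDM16mut, while the mean of F13a1 with PRDM16 was 2.64 FPKM. In the E2A-HLF cotransduction the sums were 726 and 702 FPKM with PRDM16, against 127.0 and 126.7 FPKM with PRDM16mut, and the share of Lyz2 was 40.5% and 38.5% with PRDM16 and 22.9% and 23.1% with PRDM16mut. In the MLL-AF9 stable cells the sums were 462.4 and 461.8 FPKM with PRDM16, against 364 and 367 FPKM with PRDM16mut, and the share of Lyz2 was between 29.2% and 32.0% in the 4 libraries. The PRDM16 sums were thus above the PRDM16mut sums in each experiment, by a wide margin in the cotransductions and a narrow one in the stable cells. The 3 tables were made separately, and levels set side by side across them are descriptive. In bulk RNA, fewer cells of a type and less RNA per cell cannot be told apart.

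Without overlap between the libraries of the groups, 7 of the 9 genes were higher and 2 lower with PRDM16 in the MLL-AF9 cotransduction, 7 higher and 2 lower in the E2A-HLF cotransduction, and 9 higher in the stable cells. Such separation was common among all tested genes, at 86.3%, 73.7% and 60.6% in that order. By direction, 43.6% were higher and 42.7% lower without overlap in the MLL-AF9 cotransduction, 38.4% and 35.3% in the E2A-HLF cotransduction, and 35.1% and 25.6% in the stable cells. Lyz1, Lyz2, Cd52, Plek, Lgals3 and Emr1 were higher in all 3 experiments, as were 471 of 9489 genes tested in every table (4.96%). The choice of these 9 genes fixed that pattern, and nothing is read from its count. All 9 genes passed the filter on low values in each table.

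**Figure D1:**
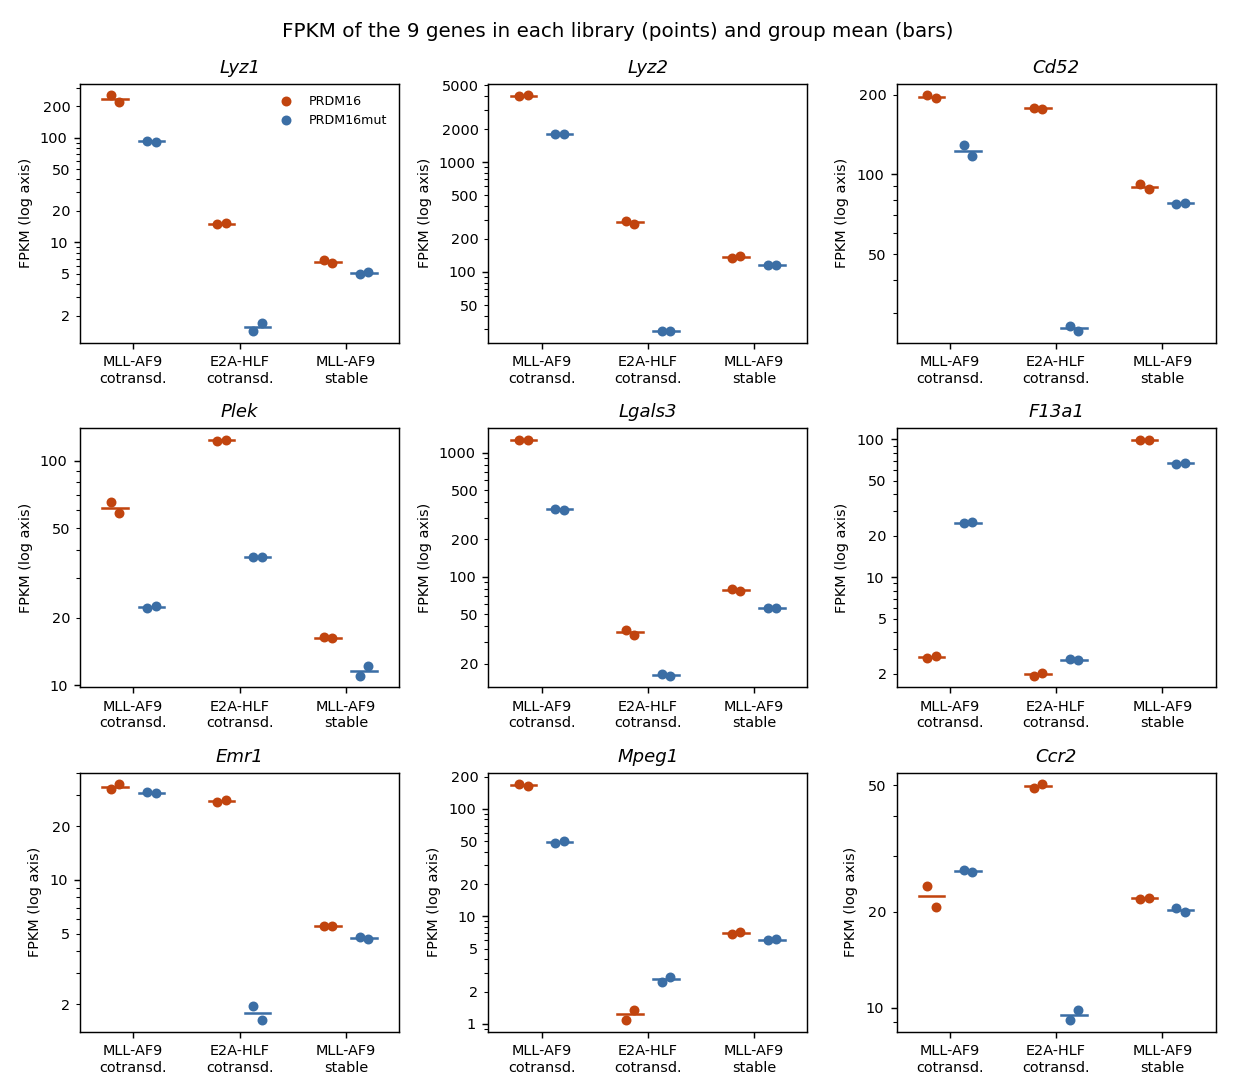
FPKM on a log axis of the 9 genes in every library (points, 2 per group) with the group mean (horizontal bar), PRDM16 left of PRDM16mut in each of the 3 experiments. Emr1 in the MLL-AF9 cotransduction is nearly level between the groups, F13a1 and Mpeg1 each have an experiment in which PRDM16 is the lower group by more than 2-fold, and in the stable cells all 9 genes are slightly higher with PRDM16.

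Lyz2, which encodes lysozyme M, an enzyme that cuts bacterial cell walls, was the most abundant of the 9 genes in 10 of the 12 libraries; in both E2A-HLF libraries with PRDM16mut, Plek was higher. It measured 3988 and 4046 FPKM with PRDM16 and 1794 and 1808 FPKM with PRDM16mut in the MLL-AF9 cotransduction. In the E2A-HLF cotransduction it measured 294 and 270.5 FPKM with PRDM16 and 29.0 and 29.2 FPKM with PRDM16mut. In the stable cells it measured 135 and 141 FPKM with PRDM16, and 116.3 and 116.4 FPKM with PRDM16mut. The PRDM16 libraries were the higher ones each time, by 2.23-fold, 9.69-fold and 1.19-fold in that order of experiments. On the scale of log2(FPKM + 1), the differences were 1.16 (0.74 with quantile normalization) with a standard error of 0.0458, 3.23 with 0.0532 and 0.24 with 0.0325. By mean level Lyz2 was 24th of 23309 entries in the MLL-AF9 cotransduction, 563rd of 23235 in the E2A-HLF cotransduction and 716th of 23235 in the stable cells.

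Lyz1 followed Lyz2 at a lower level. It measured 254 and 219 FPKM with PRDM16 and 92.4 and 91.9 FPKM with PRDM16mut in the MLL-AF9 cotransduction. In the E2A-HLF cotransduction the values were 15.0 and 15.2 FPKM with PRDM16 and 1.42 and 1.71 FPKM with PRDM16mut. In the stable cells they were 6.78 and 6.30 FPKM with PRDM16 and 4.99 and 5.21 FPKM with PRDM16mut. The groups did not overlap in any of these experiments, and PRDM16 was higher by 2.57-fold, 9.67-fold and 1.28-fold.

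Per length, Lyz2 exceeded Lyz1 by 15.7-fold to 23.3-fold in the 12 libraries, a narrow range beside the 151-fold span of Lyz1 group means across the 3 tables. Within the MLL-AF9 cotransduction this ratio was 15.7 and 18.4 with PRDM16 and 19.4 and 19.7 with PRDM16mut. In the E2A-HLF cotransduction it was 19.6 and 17.8 with PRDM16, and 20.4 and 17.1 with PRDM16mut, so that the groups overlapped there. In the stable cells it was 19.9 and 22.34 with PRDM16 and 23.3 and 22.33 with PRDM16mut. With the FPKM of both genes added, the log2 differences were 1.17, 3.23 and 0.25, close to those of Lyz2 alone. Reads can be misplaced between these genes, so the Lyz1 values may not be independent of Lyz2. The part of such reads in the ratio was not tested.

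**Figure D2:**
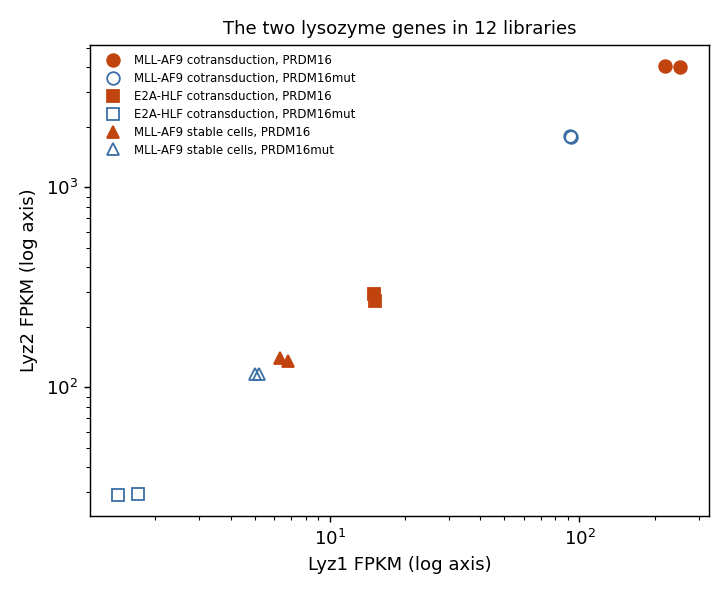
Lyz2 FPKM against Lyz1 FPKM in the 12 libraries, both axes logarithmic, with filled symbols for PRDM16, open symbols for PRDM16mut and one shape per experiment. The points lie along a single diagonal, with the MLL-AF9 cotransduction at the top right and the E2A-HLF cotransduction with PRDM16mut at the bottom left. Reads may be shared between the genes, so the axes may not be independent.

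Lgals3 encodes galectin-3, a sugar-binding lectin that macrophages secrete and carry in the cytoplasm. It measured 1263 and 1268 FPKM with PRDM16 and 351 and 347 FPKM with PRDM16mut in the MLL-AF9 cotransduction. With E2A-HLF it measured 37.1 and 34.2 FPKM with PRDM16 and 16.5 and 16.0 FPKM with PRDM16mut. In the stable cells the values were 79.1 and 77.0 FPKM with PRDM16 and 56.4 and 56.1 FPKM with PRDM16mut. PRDM16 was thus the higher group in each experiment, by 3.62-fold, 2.19-fold and 1.39-fold, and Lgals3 had the largest positive log2 difference of the 9 genes in the MLL-AF9 cotransduction (1.85, standard error 0.0453).

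The other galectin genes were not among the 9 and were tested. The test was a linear model with moderated variance in limma on log2(FPKM + 1), within each table, and calls were made where the p adjusted by Benjamini-Hochberg was under 0.05. In the MLL-AF9 cotransduction 4 of 5 tested genes of the galectin list besides Lgals3 were called higher and 1 lower, where 35.6% and 34% of all genes were called in these directions and 69.5% in either. Lgals1, galectin-1, rose to 1894 ± 27.2 FPKM with PRDM16, against 495 ± 6.19 FPKM with PRDM16mut (SD, n = 2 libraries each; limma, adjusted p = 5.39e-06). Lgals3bp, a secreted glycoprotein that binds galectins, rose by 1.99 on the log2 scale there (limma, adjusted p = 4.46e-05). Among E2A-HLF libraries it fell by 1.25 (limma, adjusted p = 1.16e-05), while Lgals1 rose by 0.67 (limma, adjusted p = 3.84e-04). Besides Lgals3 the list had 1 gene called higher and 3 lower of 5 there, where the shares of all genes were 22.7% and 21.1%. In the stable cells limma called 0 of these 5, where 6.36% of all genes were called in either direction. Lgals1 was the 1 gene of the 5 at an unadjusted p under 0.05 (0.00596, limma).

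F13a1 encodes the A subunit of coagulation factor XIII, a transglutaminase that cross-links fibrin and is made by monocytes and megakaryocytes. In the MLL-AF9 cotransduction it measured 2.60 and 2.68 FPKM with PRDM16 and 24.5 and 25.1 FPKM with PRDM16mut. In E2A-HLF cells it was low in all libraries, with 1.936 and 2.003 FPKM with PRDM16 and 2.55 and 2.49 FPKM with PRDM16mut. Among the stable cells it measured 98.9 and 98.8 FPKM with PRDM16 and 66.2 and 67.7 FPKM with PRDM16mut. F13a1 was lower with PRDM16 in both cotransductions and higher in the stable cells, where its log2 difference of 0.56 (standard error 0.0282) was the largest of the 9 genes. In the MLL-AF9 cotransduction its log2 difference was -2.82 with a standard error of 0.0570. Megakaryocyte markers, of another cell type that makes this protein, summed to 140 and 147 FPKM with PRDM16 and 123 and 120 FPKM with PRDM16mut in the MLL-AF9 cotransduction, to 575 and 545 against 578 and 627 FPKM in the E2A-HLF cotransduction, and to 6.42 and 6.997 against 4.83 and 5.76 FPKM in the stable cells. Their part was not tested. F13b, the gene of the carrier subunit, was listed at 0 in all 8 cotransduction libraries. Tgm2, another transglutaminase, fell by 1.80 in the MLL-AF9 cotransduction (limma, adjusted p = 5.27e-05). It rose by 1.49 in the E2A-HLF cotransduction and by 0.32 in the stable cells (limma, adjusted p = 7.36e-06 and 0.0219). Tgm1, a further transglutaminase, rose by 0.43, 0.27 and 0.22 in the 3 experiments (limma, adjusted p = 0.0236, 0.0140 and 0.0305).

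Plek encodes pleckstrin, a cytoplasmic substrate of protein kinase C in platelets and leukocytes. Its FPKM was 65.1 and 58.3 with PRDM16 and 22.0 and 22.6 with PRDM16mut in the MLL-AF9 cotransduction. With E2A-HLF it was 122 and 124 with PRDM16 and 37.1 and 37.4 with PRDM16mut. Within the stable cells it was 16.4 and 16.2 with PRDM16 and 11.04 and 12.2 with PRDM16mut. PRDM16 was the higher group in each experiment without overlap, by 2.77-fold, 3.30-fold and 1.404-fold. Among the 9 genes, Plek was thus one whose fold was similar in both cotransductions. The related gene Plek2 stayed under 0.31 FPKM in every library.

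Mpeg1 encodes perforin-2, a pore-forming protein of the endosomes of macrophages that kills ingested bacteria. It measured 169 and 165 FPKM with PRDM16 and 48.2 and 49.9 FPKM with PRDM16mut in the MLL-AF9 cotransduction. Among E2A-HLF libraries it was close to the filter, at 1.09 and 1.36 FPKM with PRDM16 and 2.48 and 2.75 FPKM with PRDM16mut. In stable cells it measured 6.81 and 7.14 FPKM with PRDM16 and 5.99 and 6.17 FPKM with PRDM16mut. The PRDM16 libraries were higher in both MLL-AF9 experiments and lower in the E2A-HLF cotransduction. The log2 difference was 1.75 (standard error 0.0506) in the MLL-AF9 cotransduction, -0.70 (0.0871) with E2A-HLF and 0.17 (0.0439) in stable cells. The group means of Mpeg1 spanned 136-fold over the 3 tables, nearly as much as the 138-fold of Lyz2.

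Emr1 encodes F4/80, an adhesion receptor of mouse macrophages and the antigen most used to stain them. For the MLL-AF9 cotransduction its FPKM was 32.4 and 34.5 with PRDM16 and 31.3 and 30.7 with PRDM16mut. In E2A-HLF cells it was 27.5 and 28.0 with PRDM16 and 1.95 and 1.63 with PRDM16mut. Among the stable cells it was 5.49 and 5.54 with PRDM16 and 4.76 and 4.69 with PRDM16mut. Emr1 had the largest fold of the 9 genes in the E2A-HLF cotransduction, 15.5-fold, and its log2 difference was 3.37 with a standard error of 0.0691. The PRDM16mut values there lie near the filter of 1 FPKM. With 0.1 in place of 1 added to FPKM, the log2 difference was 3.89. For the MLL-AF9 cotransduction and the stable cells the folds were 1.08 and 1.17. The log2 difference in the MLL-AF9 cotransduction was 0.10, and 0.062 without PRDM16 replicate 2. The group highest in Emr1 was thus the MLL-AF9 cotransduction with PRDM16, close above the same cells with PRDM16mut. The adhesion receptor Cd97, of the same family, differed by -0.11, 0.10 and -0.03 on the log2 scale in the 3 experiments (limma, adjusted p = 0.188, 0.320 and 0.662). Emr4, another member of the family, rose to 2.71 and 2.33 FPKM with PRDM16, against 0.383 and 0.327 FPKM with PRDM16mut, in the MLL-AF9 cotransduction (log2 fold change 1.38, limma, adjusted p = 7.18e-05), and was under the filter in the other experiments.

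Cd52 encodes a short glycoprotein tethered to the surface of lymphocytes and monocytes. Its FPKM was 199 and 195 with PRDM16 and 129 and 117 with PRDM16mut in the MLL-AF9 cotransduction. With E2A-HLF it was 178 and 177 with PRDM16 and 26.9 and 25.6 with PRDM16mut. Within the stable cells it was 92.1 and 87.8 with PRDM16 and 77.5 and 78.1 with PRDM16mut. The E2A-HLF cells with PRDM16mut stood apart as the low group, and PRDM16 was higher by 1.60-fold, 6.76-fold and 1.16-fold.

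Ccr2 encodes the receptor for the chemokine CCL2 through which inflammatory monocytes leave the marrow. It measured 24.2 and 20.8 FPKM with PRDM16 and 27.1 and 26.7 FPKM with PRDM16mut in the MLL-AF9 cotransduction. Among E2A-HLF libraries it measured 49.1 and 50.4 FPKM with PRDM16 and 9.15 and 9.84 FPKM with PRDM16mut. In stable cells it measured 22.0 and 22.2 FPKM with PRDM16 and 20.6 and 20.1 FPKM with PRDM16mut. Outside the E2A-HLF cotransduction, where PRDM16 was 5.24-fold higher, the groups lay close together, with ratios of 0.835 in the MLL-AF9 cotransduction and 1.09 in the stable cells. The log2 difference in the MLL-AF9 cotransduction was -0.25, and -0.15 without PRDM16 replicate 2. Its range over all group means, 5.24-fold, was the smallest of the 9 genes.

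**Figure D3:**
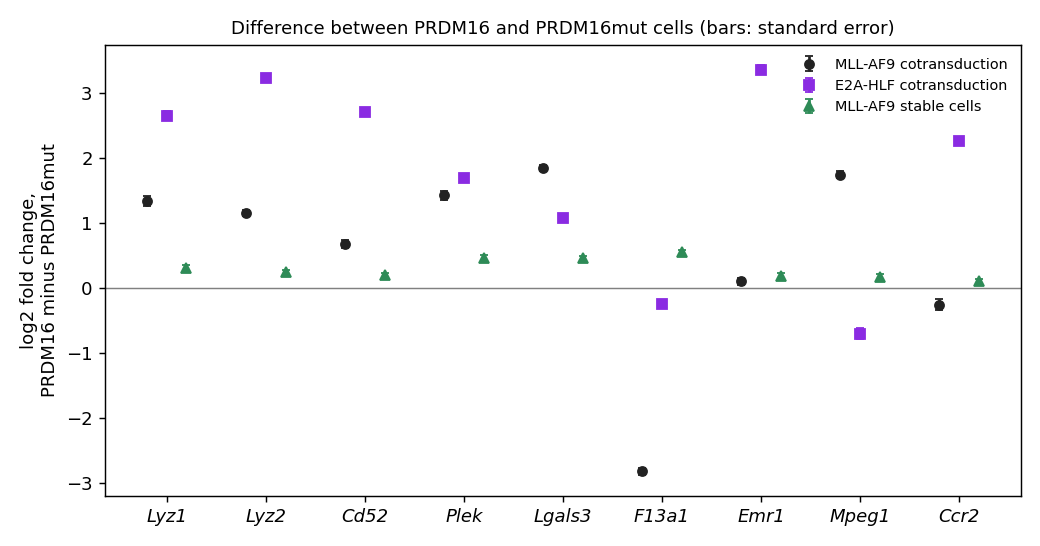
Log2 fold change of FPKM + 1, PRDM16 minus PRDM16mut, of the 9 genes in the 3 experiments, with bars for the standard error from limma (2 libraries per group). The E2A-HLF cotransduction has the largest positive values (Emr1 3.37, Lyz2 3.23), F13a1 in the MLL-AF9 cotransduction the lowest (-2.82), and the stable cells stay between 0.11 and 0.56.

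The ligands of Ccr2 and the chemokine receptor genes beside it were tested as genes outside the 9. For the MLL-AF9 cotransduction 1 was called higher and 5 lower of 8, the ligand genes Ccl2, Ccl7 and Ccl8 among the lower ones. Of all genes, 35.6% were called higher and 34% lower in that experiment. Ccl2 fell to 4.199 ± 0.497 FPKM with PRDM16, against 56.9 ± 0.107 FPKM with PRDM16mut (SD, n = 2 libraries each; limma, adjusted p = 5.01e-06). Ccl7 fell by 3.89 and Ccl8 fell by 4.17 on the log2 scale (limma, adjusted p = 8.13e-06 and 2.07e-06). In E2A-HLF cells Ccl7, Ccl8 and Ccl12 were listed at 0 in all 4 libraries, and Ccl2 did not exceed 0.402 FPKM. There the receptor gene Ccr1 rose to 14.6 ± 0.0619 FPKM with PRDM16, against 1.22 ± 0.00490 FPKM with PRDM16mut (limma, adjusted p = 1.42e-06). Among the stable cells Ccr1 alone was called, higher by 0.32 (limma, adjusted p = 0.0379), of 5 tested. In that experiment 4.2% of all genes were called higher.

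Over the 9 genes the median log2 difference was 1.16 in the MLL-AF9 cotransduction, 2.27 in the E2A-HLF cotransduction and 0.24 in the stable cells. The median over all tested genes was 0.0062, 0.0112 and 0.0148. The 9 genes were picked with this difference known, so nothing is read from the gap between these medians. The values ran from -2.82 to 1.85, from -0.70 to 3.37 and from 0.11 to 0.56. Replicates were close: the largest coefficient of variation in any group was 10.7%, 15.8% and 6.94% in the 3 experiments. No 2-fold difference occurred among the 9 genes in the stable cells, while 5 of them were at least 2-fold higher in the MLL-AF9 cotransduction and 7 in the E2A-HLF cotransduction.

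The name monocyte genes was checked against markers of that lineage. For the MLL-AF9 cotransduction Csf1r, the receptor for the growth factor of macrophages, rose to 60.2 and 67.2 FPKM with PRDM16, against 11.7 and 12.2 FPKM with PRDM16mut (log2 fold change 2.32, limma, adjusted p = 1.11e-05). With E2A-HLF Csf1r measured 0.273 and 0.285 FPKM with PRDM16 and 0.145 and 0.191 FPKM with PRDM16mut, under the filter. C1qa, a complement gene of macrophages, was listed at 0 there in 3 of 4 libraries. Within the stable cells Csf1r was between 2.05 and 2.51 FPKM. Cx3cr1, a chemokine receptor of monocytes, stayed under 0.31 FPKM in all 12 libraries. Other markers of the same lists were abundant in the E2A-HLF libraries. Tyrobp, a signalling adaptor of myeloid receptors, measured 355 and 326 FPKM with PRDM16 and 221 and 231 FPKM with PRDM16mut, and Cd68, a lysosomal glycoprotein of macrophages, measured 55.6 and 51.4 FPKM with PRDM16 and 46.0 and 47.2 FPKM with PRDM16mut. Ly6c2 measured 3155 and 2966 FPKM with PRDM16 and 1600.3 and 1735 FPKM with PRDM16mut. In that experiment 11 of 18 receptors and 8 of 16 lysosomal or secreted proteins passed the filter, so the markers were mixed, with Csf1r, C1qa and Cx3cr1 among those at or near 0. Ptprc, the leukocyte antigen CD45, was present in every table, at 44.7, 55.9 and 60.9 FPKM on average with PRDM16 and 51.5, 60.4 and 56.4 FPKM with PRDM16mut.

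Of 18 other surface receptors of monocytes, 16 were tested in the MLL-AF9 cotransduction, and 9 were called higher and 6 lower. There 35.6% of all genes were called higher, 34% lower and 69.5% in either direction. Clec7a, the receptor Dectin-1 for fungal glucans, rose to 238 ± 17.6 FPKM with PRDM16, against 14.1 ± 0.0204 FPKM with PRDM16mut (SD, n = 2 libraries each; limma, adjusted p = 2.10e-06). Ly6c2, part of the Ly6C antigen of inflammatory monocytes and other myeloid cells, fell to 8.39 and 7.35 FPKM with PRDM16, against 1195 and 1164 FPKM with PRDM16mut (log2 fold change -7.06, limma, adjusted p = 6.11e-07). It has close relatives in the genome, so its reads may be shared with them. Among 11 tested in the E2A-HLF cotransduction, 9 were called higher and 2 lower, where 22.7% and 21.1% of all genes were called in these directions and 43.8% in either. Fcgr3, an Fc receptor for IgG, rose to 82.2 ± 3.70 FPKM with PRDM16, against 4.23 ± 0.147 FPKM with PRDM16mut (limma, adjusted p = 4.83e-07), and Fcgr1, the high-affinity one, rose by 1.91 (limma, adjusted p = 9.10e-06). In stable cells 2 of 13 were called, both higher, where 4.2% of all genes were called higher, 2.16% lower and 6.36% in either direction. They were Cd14, a co-receptor for bacterial lipopolysaccharide, and Fcgr3, at log2 fold changes of 0.49 and 0.29 (limma, adjusted p = 0.00735 and 0.0197). Cd14 rose in all 3 experiments, by 0.88, 2.60 and 0.49 (limma, adjusted p = 1.07e-04, 5.99e-06 and 0.00735), which was seen for no other of the 18 receptors. The count of 2 became 1 without either PRDM16 library or without PRDM16mut replicate 1.

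Lysosomal and secreted proteins of macrophages made up another list of 16 genes. For the MLL-AF9 cotransduction 14 were called higher and 2 lower of 16 tested, with a median log2 fold change of 1.66. Of all genes, 35.6% were called higher and 34% lower there. These shares were 22.7% and 21.1% in the E2A-HLF cotransduction, and 4.2% and 2.16% in the stable cells. Aif1, an actin-bundling protein of macrophages, rose by 2.99 and C1qb, a complement chain, by 2.62 (limma, adjusted p = 5.11e-05 and 4.14e-06), while the fibronectin gene Fn1 fell by 2.61 (limma, adjusted p = 5.31e-06). Among E2A-HLF libraries 1 of 8 was called higher and 4 were called lower, and the median was -0.11. Lgmn, the lysosomal protease legumain, fell to 0.817 ± 0.0460 FPKM with PRDM16, against 6.73 ± 0.308 FPKM with PRDM16mut (SD, n = 2 libraries each; limma, adjusted p = 6.37e-06). Ctss, cathepsin S, fell by 1.53 and Apoe, apolipoprotein E, by 1.31 (limma, adjusted p = 3.62e-05 and 8.65e-05). The count of 1 higher gene became 0 when PRDM16 replicate 1 or either PRDM16mut library was left out. Among the stable cells 2 of 14 were called, Vcan and Psap, both higher (0.32 and 0.21, limma, adjusted p = 0.0344 and 0.0369). Both calls were lost whichever library was left out.

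**Figure D4:**
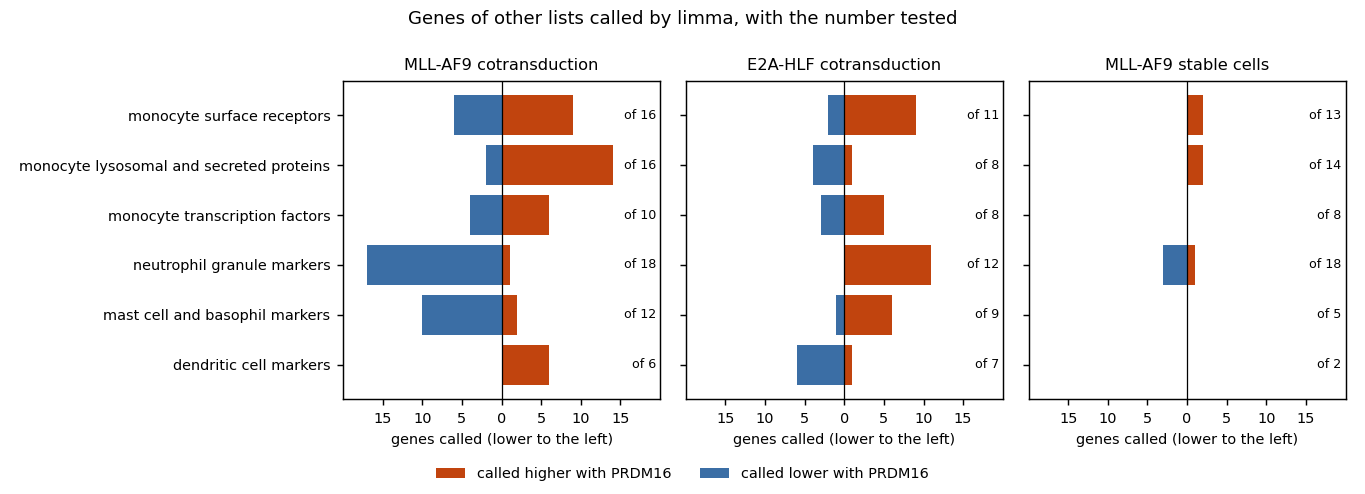
Number of genes called higher (right of 0) and lower (left of 0) with PRDM16 than with PRDM16mut, by limma at an adjusted p under 0.05, in 6 lists of genes outside the 9 and in the 3 experiments, with the number tested printed at the right. Neutrophil granule markers are mostly lower in the MLL-AF9 cotransduction (17 of 18) and mostly higher in the E2A-HLF cotransduction (11 of 12). Of all genes, 34% were called lower in the first and 22.7% higher in the second.

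Of 10 listed transcription factors of the monocyte lineage tested in the MLL-AF9 cotransduction, 6 were called higher and 4 lower. Gfi1, which favours granulocytes, was 1 of the lower ones. Of 8 tested in the E2A-HLF cotransduction, 5 were called higher and 3 lower. Of all genes, 69.5% were called in either direction in the MLL-AF9 cotransduction (35.6% higher, 34% lower). The share was 43.8% in the E2A-HLF cotransduction (22.7% higher, 21.1% lower) and 6.36% in the stable cells. Of the lower factors in the MLL-AF9 cotransduction, 1 was called without PRDM16mut replicate 1 and 2 without PRDM16mut replicate 2. Of the higher factors in the E2A-HLF cotransduction, 3 were called without PRDM16 replicate 2 or without PRDM16mut replicate 2. Within the stable cells limma called 0 of 8 factors, with or without any library, and 1, Egr1, had an unadjusted p under 0.05 (0.0195, limma). Spi1, which encodes PU.1 and is listed under its older symbol Sfpi1, measured 257 and 296 FPKM with PRDM16 and 230.0 and 222 FPKM with PRDM16mut in the MLL-AF9 cotransduction (log2 fold change 0.29, limma, adjusted p = 0.0236). In E2A-HLF cells it measured 119.8 and 114 FPKM with PRDM16 and 104 and 105 FPKM with PRDM16mut (0.16, limma, adjusted p = 0.0305). Irf8, a regulator of monocyte fate, rose by 1.17 in the MLL-AF9 cotransduction and fell by 0.59 in the E2A-HLF cotransduction (limma, adjusted p = 2.41e-04 and 0.00154). In stable cells Irf8 differed by 0.11 (limma, adjusted p = 0.224). Egr1, an immediate early factor of the macrophage lineage, rose by 1.42 and 1.41 in the 2 cotransductions (limma, adjusted p = 5.59e-05 and 4.92e-06). Gfi1, a repressor that favours granulocytes, fell to 1.62 ± 0.552 FPKM with PRDM16, against 88.7 ± 0.171 FPKM with PRDM16mut, in the MLL-AF9 cotransduction (limma, adjusted p = 8.70e-06). Cebpb, a C/EBP factor of monocytes and emergency granulopoiesis, rose by 0.998 in the E2A-HLF cotransduction (limma, adjusted p = 0.00161).

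Lysozyme is shared with granulocytes, so granulocyte markers were set beside it. For the counts below, 35.6% of all genes were called higher and 34% lower in the MLL-AF9 cotransduction. These shares were 22.7% and 21.1% in the E2A-HLF cotransduction, and 4.2% and 2.16% in the stable cells. The 18 neutrophil granule markers in the tables, including Mpo, S100a8 and S100a9, summed to 1474 and 1408 FPKM with PRDM16 and 58800 and 57715 FPKM with PRDM16mut in the MLL-AF9 cotransduction, and 17 of 18 fell. With E2A-HLF the sums were 2124 and 2023 FPKM with PRDM16 and 679 and 693 FPKM with PRDM16mut, and 11 of 12 tested rose. Among the stable cells the sums were 16385 and 16508 FPKM with PRDM16 and 15702 and 16306 FPKM with PRDM16mut, with 1 called higher and 3 lower of 18. Lyz2 and Lyz1 were higher with PRDM16 both where these markers were lower and where they were higher. That direction was known when the 9 genes were picked, so nothing is read from it beside these markers. Retnlg was listed at 0 in both PRDM16 libraries of the MLL-AF9 cotransduction and in both PRDM16mut libraries of the E2A-HLF cotransduction. Mast cell and basophil markers summed to 263.0 and 262.7 FPKM with PRDM16, against 2283 and 2265 FPKM with PRDM16mut, in the MLL-AF9 cotransduction, where 2 of 12 tested rose and 10 fell. Among E2A-HLF libraries they summed to 233 and 230.1 FPKM with PRDM16 and 178 and 183 FPKM with PRDM16mut, where 6 of 9 rose and 1 fell, with Tpsab1 listed at 0 throughout. Dendritic cell markers, which include genes of MHC class II, summed to 1313 and 1435 FPKM with PRDM16, against 48.0 and 49.7 FPKM with PRDM16mut, in the MLL-AF9 cotransduction, where 6 of 6 rose and Siglech and Cd209a were listed at 0. In E2A-HLF cells they summed to 14.3 and 14.9 FPKM with PRDM16 and 70.6 and 74.4 FPKM with PRDM16mut, where 1 of 7 rose and 6 fell. Erythroid markers summed to 892 and 470 FPKM with PRDM16 and 141 and 80.0 FPKM with PRDM16mut in the MLL-AF9 cotransduction, where 7 of 7 rose, and to 353 and 180.0 against 640 and 422 FPKM in the E2A-HLF cotransduction, where 3 of 8 rose and 1 fell. Sums of T and NK cell markers stayed under 0.4 FPKM in every library, with 0 of 8 tested. The part of these markers in the values of the 9 genes was not tested.

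Genes of most similar pattern were sought over the 12 libraries, after log2(FPKM + 1) was centred within each table, by the root mean square difference, over 9489 genes. Nearest to Lyz2 were Upp1, uridine phosphorylase (0.182), Lyz1 (0.190) and Cd52 (0.211). Nearest to Mpeg1 were Scpep1, a serine carboxypeptidase (0.0438), Rgs10, a regulator of G protein signalling (0.0708), and Lpl, lipoprotein lipase (0.0735). Lgals3 was closest to Aqp9, a water and glycerol channel (0.127), Itgb7, an integrin chain (0.134), and Lgals1 (0.157). The mean profile of the 9 genes was closest to Lrp12 (0.0771), Cytip (0.0893), Nupr1 (0.0899), Il1rn, the interleukin-1 receptor antagonist (0.106), and Atp6v0a1, a subunit of the proton pump of lysosomes (0.108). Of these 14 places, Lyz1 and Cd52, both beside Lyz2, were the ones taken by members of the 9. Lyz1 may share reads with Lyz2, so its place may not be independent. Members were left out of the search around the mean profile, so none of its places could go to them. Clone names, predicted genes, small RNAs and date-like symbols were passed over in every search.

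Promoter sequences were at hand for 7 of the 9 genes, and Cd52 and Emr1 were not matched. In the 250 bases before the start, on either strand, the PU box GAGGAA was present in Plek and in 1 of the F13a1 promoters, and in 23.3% of 32817 mouse promoters. The C/EBP motif, spelled TTGCNNAA, was present in Lyz1 and in 9.57% of promoters. These letters were not in the windows of Lyz2, Lgals3, Mpeg1 or Ccr2.

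A few facts of the whole data set bear on these values. Library totals ran from 570872 to 683269 FPKM, and with values given as FPKM alone the sequencing depth is unknown. Judged by the spacing of low values, replicate 2 was 1.62 times as deep as replicate 1 for PRDM16 in the MLL-AF9 cotransduction and 0.916 to 1.17 times as deep in the other groups. In that PRDM16 group Rn45s, a precursor of ribosomal RNA, stood at 0 in both libraries, against 1542 and 1554 FPKM with PRDM16mut and 941 to 1451 FPKM in the other 8 libraries. In that experiment the gap in Rn45s coincides with the contrast of PRDM16 and PRDM16mut. A difference in library preparation or processing thus cannot be told apart from PRDM16 there. The part of Rn45s in the results was not tested. Prdm16 itself measured 83.9 and 119 FPKM with PRDM16 and 29.5 and 30.1 FPKM with PRDM16mut in the MLL-AF9 cotransduction, 49.2 and 56.6 against 56.6 and 43.5 FPKM in the E2A-HLF cotransduction, and 77.9 and 80.0 against 89.1 and 94.6 FPKM in the stable cells. Since an introduced gene is present in both groups, this level does not check which form a library carried. In the MLL-AF9 cotransduction the level of Prdm16 and the form given differed together, and their parts cannot be told apart.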

How the data were processed

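The authors deposited 3 tables of FPKM, 1 per experiment, with 1 column per library and gene symbols only. Bowtie2 2.0.0.7, TopHat2 2.0.3, Cuffdiff and the mm9 build are named without roles, per the submitters' processing notes; the sources used here do not name the annotation, the scaling or any filter. Each table was analysed alone as log2(FPKM + 1), for genes reaching 1 FPKM in 2 or more of 4 libraries, with limma 3.58.1 in R 4.3.3 (trended variance, two-sided, PRDM16 minus PRDM16mut, Benjamini-Hochberg over all genes tested in the table, called under 0.05). This scale understates folds of low genes. With 2 libraries a group the smallest exact permutation p is 0.333, so the p-values rest on the variance limma shares across genes. Tested genes numbered 11071, 11010 and 10580. The test was checked on simulated data, drawn as independent normal values with spreads shuffled among genes. That check does not cover the trend of spread with level, or replicates that are only technical. The genes, the lists and the naming rule were chosen with earlier results of these data known. All 9 genes are named; of other lists, the 3 called genes of largest change per table, with Csf1r, Spi1 and Irf8 always. Tgm1, Tgm2, Cd97, Emr4, Tyrobp, Cd68, Plek2, F13b, C1qa, Cx3cr1, Ptprc, Retnlg, Mpo, S100a8, S100a9, Tpsab1, Siglech, Cd209a, Ccl12, Rn45s and Prdm16 were added after their values were seen. Some genes of the lists are not reported here by name. Lyz1 and Lyz2 coding sequences came from GENCODE M21.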

Additional observations from a re-analysis of the deposited data

Results flagged for a closer look

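For some named genes every PRDM16 library lay above every PRDM16mut library in one experiment and below in another. Such separation was common. Of all tested genes, 43.6% were higher and 42.7% lower without overlap in the MLL-AF9 cotransduction. With E2A-HLF the shares were 38.4% and 35.3%, and in the stable cells 35.1% and 25.6%. How many of all genes reversed in this way was not counted. Several stable-cell values below, those of Clec7a, Ly6c2 and Fn1 among them, were small and not called. The difference between the experiments was not tested for any of them. Values are log2 fold changes, PRDM16 minus PRDM16mut, in the order MLL-AF9 cotransduction, E2A-HLF cotransduction and MLL-AF9 stable cells, or for the experiments named.

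Among the 9 genes, F13a1 had -2.82, -0.25 and 0.56. Mpeg1 had 1.75, -0.70 and 0.17. Ccr2 had -0.25, 2.27 and 0.11.

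Of the surface receptors, Clec7a had 3.98, -1.77 and 0.039. Fcgr3 had -0.93, 3.99 and 0.29. Ly6c2 had -7.06, 0.88 and 0.094.

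Of the lysosomal and secreted proteins, Ctss had 2.14, -1.53 and 0.22, and Psap had 1.47, -0.20 and 0.21. Lgmn had 2.30 and -2.09 and Apoe had 1.80 and -1.31 in the cotransductions. Fn1 had -2.61 and 0.088, and Vcan -1.58 and 0.32, in the MLL-AF9 cotransduction and the stable cells.

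Of the transcription factors, Irf8 had 1.17, -0.59 and 0.11. In the cotransductions Cebpb had -0.33 and 0.998, and Nr4a1 had 1.60 and -0.21.

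Lgals8 had 0.68, -0.49 and 0.088, and Lgals3bp had 1.99 and -1.25 in the cotransductions. Ccl2 had -3.48 in the MLL-AF9 cotransduction and 0.10 in the stable cells.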

How the results depend on the processing

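All 27 log2 differences of the 9 genes kept their sign under the 11 or 12 alternatives each allowed, but most alternatives could not reverse it. Another filter, the replicate block, no variance trend and the shared spread leave the difference itself unchanged. Since no groups of these genes overlapped, another pseudocount or a library left out could not turn the sign either. F13a1 and Mpeg1 in the E2A-HLF cotransduction had no value at an FPKM of at least 5. The largest shift for Lyz2 was to 0.74 in the MLL-AF9 cotransduction with quantile normalization. Adding Lyz1 and Lyz2 gave 1.17, 3.23 and 0.25. Libraries with the same sample number deviated together only in part (correlation across genes 0.0670, 0.289 and 0.319), and nothing in the labels ties them. With the replicate number as a block, 7812, 4354 and 664 genes were called, against 7698, 4822 and 673 without it, and no count below moved by over 1.5 times. Genes called in the stable cells fell to 41 without a filter, 278 without a variance trend, 299 with the spread shared over 12 libraries, and 65 to 139 with a library left out. The shared-spread setting took only the 9489 genes tested in every experiment. Calls that were higher made up 66% of calls in the stable cells, and 51.6% after quantile normalization.

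When 12 libraries shared 1 estimate of the spread, the MLL-AF9 cotransduction had 4 receptors and 8 lysosomal or secreted proteins higher. It had 0 lysosomal or secreted proteins lower, the E2A-HLF cotransduction 1 receptor lower, and the stable cells 0 lysosomal or secreted proteins higher. This setting took only the 9489 genes tested in every experiment. At most 11 receptors and 8 lysosomal or secreted proteins could thus be counted, fewer than the 16 of each tested in the MLL-AF9 cotransduction. At an FPKM of at least 5, 1 lysosomal or secreted protein was lower in the MLL-AF9 cotransduction and 1 factor lower in the E2A-HLF cotransduction. Quantile normalization left 2 factors lower in the MLL-AF9 cotransduction and 0 lysosomal or secreted proteins higher in the E2A-HLF cotransduction. Without a filter 4 receptors were lower in the E2A-HLF cotransduction, and in the stable cells 0 receptors and 0 lysosomal or secreted proteins were higher, and 0 lysosomal or secreted proteins were higher without a variance trend. Leaving out a library gave 1 to 4 factors lower in the MLL-AF9 cotransduction, 3 to 4 factors and 0 to 1 lysosomal or secreted proteins higher in the E2A-HLF cotransduction, and 1 to 2 receptors and 0 lysosomal or secreted proteins higher in the stable cells. The cause was not tested, though leaving out a library also leaves fewer samples. The unknown depth limits what can be said of genes near an FPKM of 1. In the E2A-HLF cotransduction these include Mpeg1 and F13a1, and Lyz1 and Emr1 with PRDM16mut.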
